A study of Mus musculus with 4 samples.

Results

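The nuclear pore and transport genes described here are 33 genes, named one by one in a list and chosen by gene function with results of this knockout comparison already known. They encode 29 proteins of the nuclear pore complex and 4 soluble transport factors. Of the 33, 32 were matched by symbol among the 34745 genes of the deposited table. The level of Nup62, which encodes a protein of the central channel, was not analysed here. RefSeq starts Nup62 at the same base as the deposited gene Il4i1, and the counts of Il4i1 were not used in its place. Every one of the 32 matched genes passed the filter on low counts, which left 13279 genes to test. Since the comparison itself helped to choose the list, its counts and median are given as a description and support nothing.

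The nuclear pore complex is a large ring-shaped channel through the nuclear envelope that carries proteins and RNA in both directions. Scaffold rings built from the Y complex and the inner ring are anchored in the membrane by integral membrane proteins, and they hold flexible nucleoporins that line the channel, filaments on the cytoplasmic face and a basket on the nuclear face. Importins and exportins carry cargo through it, and the small GTPase Ran sets the direction. T cells enlarge and divide soon after activation and must then supply pores for their daughter nuclei.

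RNA was sequenced from naive splenic CD4+ T cells of C57BL/6 mice, kept for 3 days in culture that polarises towards regulatory T (Treg) cells. Of the 4 libraries, 2 were wild type (numbers 13 and 15) and 2 carried the genotype Setd2-CD4 cre (numbers 22 and 24). Setd2 is the methyltransferase that trimethylates lysine 36 of histone H3, and a Cre driven by CD4 acts in the T lineage from the thymus on, before these cells were isolated. Whether libraries of a group are from different mice is not in the labels, so the p-values reflect library-to-library spread that could be technical only.

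Library totals ran from 14599957 to 16030869 counts, and levels are given as CPM, the count divided by the scaled library total, on which 3 counts come to 0.184 to 0.201. Setd2 itself stood at 137 and 146 CPM in the wild-type libraries and at 137 and 113 CPM in the others, and edgeR's quasi-likelihood test gave an adjusted p of 0.436 (log2 fold change -0.17, SE 0.14). The groups overlapped, so a count over the whole gene did not check the deletion, and libraries 22 and 24 are called knockout-labelled. These libraries differed from each other more than the wild-type pair did, and chi-square over its degrees of freedom was 30.9 for them and 9.94 for wild type. Over all markers listed, summed T cell genes came to 4585, 4513, 4260 and 4088 CPM in libraries 13, 15, 22 and 24, with 2 of 8 called lower (Foxp3 and Il2ra). Foxp3 alone measured 241.5, 246.9, 31.9 and 75.8 CPM in the same order, and Il2ra 1193, 1231, 828 and 857 CPM. Summed gamma-delta T cell markers came to 20.04, 20.06, 41.6 and 62.4 CPM with 3 of 6 called higher, NK cell markers to 125, 117, 162 and 205 CPM with 1 of 6 called higher and 2 lower, and B cell markers to 18.5, 16.0, 43.6 and 31.2 CPM with 1 of 6 higher. In the NK list the higher call was Gzma, at 34.0, 29.6, 112 and 159 CPM. Nkg7 (66.7, 64.2, 36.1 and 36.6 CPM) and Eomes (22.7, 21.7, 10.2 and 7.53 CPM) were lower, and 2 markers were not tested. CD8 T cell markers (125, 183, 182 and 78.5 CPM) and myeloid markers (20.3, 26.8, 20.3 and 19.7 CPM) had no call, and no marker was at 0 in every library. What part these cells had in the pore genes was not tested, and in bulk RNA a change in the share of a cell type and a change in RNA per cell cannot be told apart.

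Only Ndc1 and Nup155 passed the threshold, and both fell in the knockout-labelled libraries. Below an adjusted p of 0.05 over all 13279 genes, edgeR's quasi-likelihood test called 2 of the 32 pore and transport genes lower and 0 higher, while 30 did not pass. Over all genes tested the share called was 10.1%, with 4.59% lower and 5.53% higher. At an unadjusted p below 0.05 there were 11 of the 32, all of them lower, and 0 higher, where 31.6% of all genes tested reached that level. DESeq2 called 5 lower (Ndc1, Nup133, Nup155, Nup210 and Nup93) and 0 higher, and limma-voom called 2 lower and 0 higher. Over all 13279 genes DESeq2 called 912 lower and 1098 higher, and limma-voom 618 lower and 699 higher. Both knockout-labelled libraries lay below both wild-type libraries for 18 of the 32 genes, above them for 2 (Sec13 and Rae1), and overlapped them for 12, where 32.7% of all genes lay below and 31.1% above. The median log2 fold change of the 32 was -0.22, against -0.0013 over all genes tested. A further 6 genes (Nup93, Nup133, Nup210, Pom121, Seh1l and Ran) had an adjusted p between 0.05 and 0.10.

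The number of calls changed with each library left out. Dropping either wild-type library gave fewer calls among the 32, and dropping either knockout-labelled library gave more. Calls over all genes tested moved the same way, so these shifts are not particular to the pore genes. With wild type 13 or 15 dropped, the median log2 fold change of the 32 was -0.21 in both fits (all genes 0.009 and 0.004). It came to -0.23 when library 22 was dropped (all genes 0.0003) and to -0.18 when library 24 was dropped (all genes -0.017). In each such fit, the single library left in a group is assumed to vary like the pair of the other group.

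**Figure D1:**
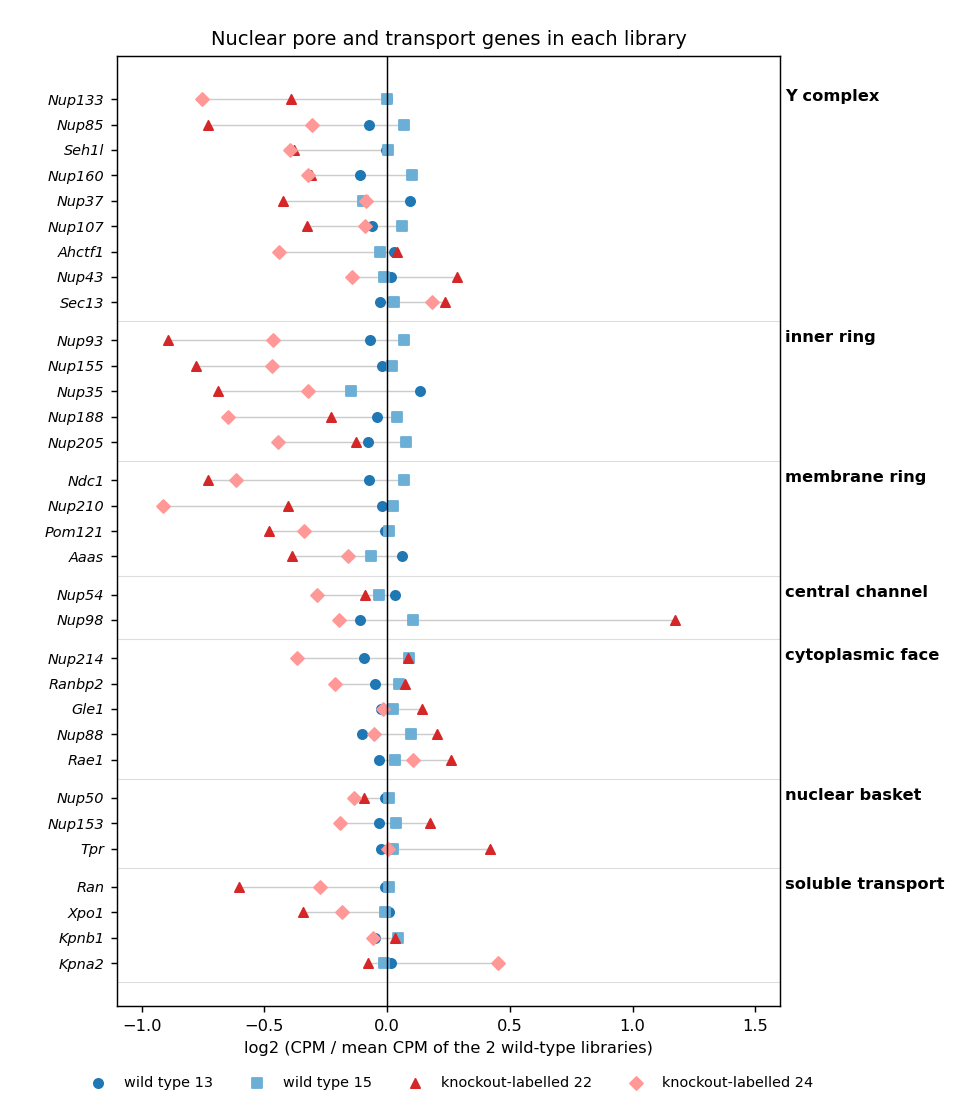
Each gene's level in each library as log2 of its CPM over the mean CPM of the 2 wild-type libraries (x axis), with genes grouped by place in the pore. Both knockout-labelled libraries lie left of both wild-type libraries for all 5 inner ring and all 4 membrane ring genes, an order found in 32.7% of all genes tested. Nup98 in library 22 is the point farthest to the right.

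The genes were sorted by place in the pore from general knowledge, with earlier results of these data known. All 4 membrane ring genes lay lower in both knockout-labelled libraries than in both wild-type libraries, as did 32.7% of all genes tested. The summed level of the 4 was 752 and 748 CPM in the wild-type pair, against 554 and 532 CPM in libraries 22 and 24. Ndc1, Nup210 and Pom121 encode the integral membrane proteins that anchor the pore, and Aaas encodes ALADIN, a WD-repeat protein held there by Ndc1.

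Ndc1 (ENSMUSG00000028614, GRCm38 chromosome 4, 107367784 to 107416346, plus strand) measured 57.1 and 63.1 CPM in the wild-type pair, against 36.3 CPM in library 22 and 39.3 CPM in library 24. Both knockout-labelled libraries were low and close together. Group means were 60.1 ± 4.199 and 37.8 ± 2.11 CPM (SD, n = 2 each), a 1.59-fold lower level (log2 fold change -0.67, SE 0.13, edgeR adjusted p = 0.0312). The call was lost without wild type 13 (adjusted p = 0.127), without wild type 15 (0.262), against a minimum fold of 1.2 (0.0687) and in limma on log2(FPKM + 0.1) and log2(FPKM + 1) (0.0532 and 0.0568), and over all alternatives the adjusted p ran from 0.00565 to 0.262.

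Nup210, the large glycoprotein of the pore membrane, measured 297 and 306 CPM in the wild-type libraries against 228 CPM in 22 and 160 CPM in 24. Both knockout-labelled values were below wild type, but they lay 1.43-fold apart (log2 fold change -0.64, SE 0.18, adjusted p = 0.0664). Pom121 measured 142 and 144 CPM against 103 and 113 CPM (log2 fold change -0.41, SE 0.13, adjusted p = 0.0822). Aaas stood at 256 and 234 CPM against 187 and 219 CPM, the smallest difference of the membrane ring (log2 fold change -0.27, adjusted p = 0.211).

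The inner ring, which links the membrane anchors to the central channel, had both knockout-labelled libraries below both wild-type libraries for all 5 of its genes. Of all genes tested, 32.7% lay lower in this way. The summed level of the 5 inner ring genes was 493 and 525 CPM in the wild-type pair, against 389 and 363 CPM in libraries 22 and 24. Nup155 (ENSMUSG00000022142, chromosome 15, 8109313 to 8159857, plus strand), which bridges the inner ring and the membrane, measured 112 and 115 CPM against 66.1 and 81.8 CPM. The lowest wild-type library was well above the highest knockout-labelled one. Group means were 113 ± 2.12 and 74.0 ± 11.1 CPM (SD, n = 2 each), 1.53-fold lower (log2 fold change -0.62, SE 0.15, edgeR adjusted p = 0.0498). This value lay just inside the threshold. It was 0.0506 with the size factors of DESeq2, 0.0529 with a filter at 5 CPM, 0.0545 with upper quartile scaling, 0.113 against a minimum fold of 1.2, 0.0594 and 0.0621 in limma on log2 FPKM, 0.216 and 0.299 with wild type 13 or 15 left out, and it ran from 0.00659 to 0.299 over all alternatives.

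Just outside the threshold came Nup93 (chromosome 8, 94214597 to 94315066, plus strand), the organiser of the inner ring. It measured 63.4 and 69.8 CPM against 35.9 and 48.3 CPM, with group means of 66.6 ± 4.53 and 42.1 ± 8.71 CPM (SD, n = 2 each). This was a 1.58-fold difference (log2 fold change -0.66, SE 0.17, adjusted p = 0.0568), close in size to that of Ndc1 but with a wider spread between libraries 22 and 24. Nup35, the smallest inner ring protein, which binds membrane and Nup155, measured 27.8 and 22.9 CPM against 15.7 and 20.3 CPM. The large scaffold genes Nup188 and Nup205 gave 103 and 109 against 90.5 and 67.6 CPM, and 187 and 208 against 181 and 145 CPM. Those 3 genes had adjusted p-values of 0.146, 0.144 and 0.252, and in Nup205 library 22 came close to wild type 13.

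**Figure D2:**
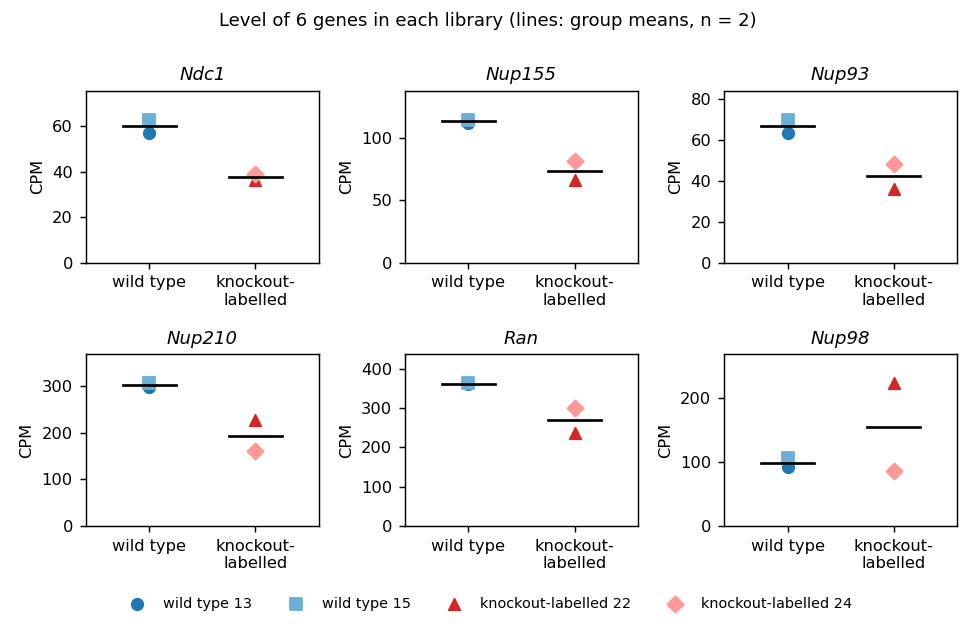
CPM in each library (y axis, from 0) for 6 genes, with points for single libraries and lines for group means (n = 2). Ndc1, Nup155, Nup93, Nup210 and Ran have both knockout-labelled libraries below wild type, while for Nup98 library 22 is at 224 CPM and library 24 at 86.5 CPM.

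Promoter sequence is shown for the 2 genes past the threshold, for Nup93, which was just outside it, and for Ran, the regulator of transport direction. RefSeq sequences (GRCm38.p6) were matched for 29 of the 33 genes, with 32 windows of 250 bases before to 50 bases after a start site. The last 120 bases before the start are printed 5′ to 3′ on the gene's strand, which is plus for all 4, and capitals mark a searched motif. The stretches are chr4:107367927-107368046 for Ndc1, chr15:8109193-8109312 for Nup155, chr8:94214444-94214563 for the first of 2 windows of Nup93 and chr5:129020036-129020155 for Ran.
Ndc1: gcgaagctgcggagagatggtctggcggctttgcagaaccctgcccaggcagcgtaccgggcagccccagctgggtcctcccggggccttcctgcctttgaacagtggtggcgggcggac
Nup155: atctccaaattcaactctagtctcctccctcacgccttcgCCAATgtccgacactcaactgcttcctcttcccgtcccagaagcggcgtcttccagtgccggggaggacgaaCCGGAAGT
Nup93: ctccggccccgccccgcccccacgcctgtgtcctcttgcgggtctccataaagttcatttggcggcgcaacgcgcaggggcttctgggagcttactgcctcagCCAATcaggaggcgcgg
Ran: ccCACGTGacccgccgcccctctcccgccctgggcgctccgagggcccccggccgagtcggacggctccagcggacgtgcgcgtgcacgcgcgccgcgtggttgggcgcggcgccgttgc
Capitals mark a CCAAT box and an ETS site in Nup155, a CCAAT box in Nup93 and an E-box in Ran, and the Ndc1 stretch held none of the 8 motifs searched. Start sites here are those of RefSeq. The Ndc1 stretch lies inside the gene by its deposited coordinates (from 107367784), and the Ran stretch crosses the deposited start (129020069).

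The motifs were searched on both strands of the whole windows: the CCAAT box (CCAAT), the E-box of Myc and related factors (CACGTG), 2 forms of the E2F site (TTTCGCGC and TTTGGCGC), the NRF1 core (GCGCATGC), the ETS site (CCGGAAGT), the cAMP response element (TGACGTCA) and the YY1 core (AAGATGGC). A CCAAT box stood in 43.8% of the 32 windows against 37.8% of the 12238 windows of all tested genes, and an E-box in 15.6% against 9.90%. Counted per gene, the CCAAT box turned the other way, with 41.4% of the 29 genes against 43.1% of the 9585 tested genes that have a window. NRF1 cores stood in 12.5% of windows against 5.20%, ETS sites in 15.6% against 8.02%, the cAMP response element in 6.25% against 3.07%, and the YY1 core in 12.5% against 4.40%. The 32 windows include that of Nup62, whose level was not analysed. Without Nup62, 41.9% of 31 windows held a CCAAT box and 9.68% an NRF1 core. The E-box and the ETS site then stood in 16.1% each, the cAMP response element in 6.45% and the YY1 core in 12.9%. Neither E2F form stood in any of the 32 windows, where 0.654% and 1.01% of the windows of all tested genes held them. These are letter matches in short windows. They do not show binding, and they were not tested.

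Among the 9 genes of the Y complex, the branched scaffold that forms the outer rings, 5 lay lower, 1 higher and 3 overlapped, and edgeR called 0 (3 at an unadjusted p below 0.05; DESeq2 1, limma-voom 0). Over all genes tested, 32.7% lay lower, 31.1% lay higher and 31.6% had an unadjusted p below 0.05. The summed level of the 9 was 763 and 793 CPM in the wild-type pair, against 665 and 644 CPM. Nup133, at the stem of the complex, measured 67.5 and 67.6 CPM against 51.5 and 40.02 CPM, where the wild-type pair was almost equal (log2 fold change -0.56, SE 0.16, adjusted p = 0.0659). Nup85, in an arm of the complex, measured 91.5 and 101 CPM against 58.0 and 77.9 CPM (log2 fold change -0.50, adjusted p = 0.108). Seh1l, the partner of Nup85, also takes part in nutrient signalling at the lysosome. It measured 123 CPM in both wild-type libraries and 94.4 and 93.3 CPM in libraries 22 and 24, so that replicates agreed closely within each group (log2 fold change -0.39, SE 0.12, adjusted p = 0.0850).

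The other Y complex scaffolds differed less. Nup160 measured 115 and 133 CPM against 100.3 and 99.5 CPM, and Nup107 measured 97.1 and 106 CPM against 80.9 and 95.2 CPM. In Nup107 library 24 came within 2 CPM of wild type 13. Nup37 (34.2 and 30.0 against 23.9 and 30.3 CPM), Nup43 (19.98 and 19.6 against 24.1 and 17.9 CPM) and Ahctf1 (138 and 132 against 139 and 99.5 CPM), which encodes the chromatin-binding factor that starts pore assembly after mitosis, had overlapping groups. Sec13 went the other way. This subunit is shared with the coat of vesicles that leave the endoplasmic reticulum, and it measured 77.7 and 81.0 CPM in the wild-type pair, against 93.4 and 90.1 CPM (log2 fold change 0.21, adjusted p = 0.295).

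The cytoplasmic filaments and the nuclear basket gave a different picture. Of their 8 genes, 1 lay lower (Nup50), 1 lay higher (Rae1) and 6 overlapped. edgeR called 0 of them, 0 were below an unadjusted p of 0.05, and DESeq2 and limma-voom called 0. The 5 genes of the cytoplasmic face summed to 674 and 732 CPM in the wild-type pair, against 768 and 636 CPM, and the 3 basket genes to 904 and 937 CPM against 1092 and 861 CPM. The median log2 fold change was 0.03 over these 8 genes and -0.40 over the 18 genes of the Y complex, inner ring and membrane ring, where 14 lay lower, 1 higher and 3 overlapped. Over all genes tested, 32.7% lay lower and 31.1% higher. This split into scaffold and periphery was made after the values were seen, and the difference between the 2 sets was not tested.

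Within the face, Ranbp2, the giant SUMO ligase of the filaments, measured 312 and 334 CPM against 340 and 279 CPM. Nup214 and Nup88, which together hold the export platform, measured 95.8 and 109 against 109 and 79.3 CPM, and 118.5 and 136 against 147 and 123 CPM. Gle1, an activator of the helicase that releases exported mRNA, stayed between 65.3 and 73.4 CPM in all 4 libraries. Rae1, an mRNA export factor that binds Nup98, measured 81.8 and 85.4 CPM against 100 and 90.1 CPM, so that both knockout-labelled libraries were higher (log2 fold change 0.19, adjusted p = 0.370). In the basket, Nup153 measured 370 and 388 CPM against 428 and 332 CPM, with knockout-labelled libraries on either side of wild type. Tpr, the main filament of the basket, measured 384 and 398 CPM against 523 and 392 CPM, and only library 22 was high. Nup50, which helps importins release cargo, measured 149 and 151 CPM against 141 and 137 CPM (log2 fold change -0.11, adjusted p = 0.538).

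**Figure D3:**
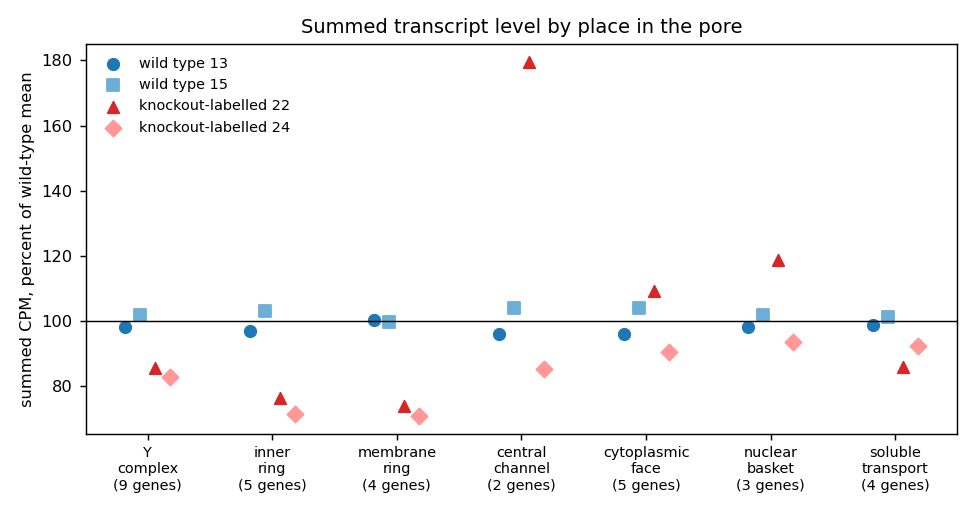
Summed CPM of the genes at each place in the pore as percent of the wild-type mean (y axis), with a point for each library. Inner ring and membrane ring sums are below wild type in both knockout-labelled libraries, while the cytoplasmic face and basket sums lie on either side of it, and the central channel sum of 273 CPM in library 22 comes from Nup98.

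Central channel genes were represented by Nup54 and Nup98. Nup54, a partner of Nup62, measured 54.3 and 51.9 CPM against 49.9 and 43.5 CPM (log2 fold change -0.19, adjusted p = 0.379). Nup98, which forms much of the channel's barrier and whose transcript also encodes Nup96 of the Y complex, measured 91.8 and 107 CPM in the wild-type pair, but 224 CPM in library 22 and 86.5 CPM in library 24. Library 22 alone was high, and 24 was the lowest of the 4. The knockout-labelled values were 2.58-fold apart, a ratio reached by 0.609% of the 7721 genes with a mean level at or above that of the lowest pore gene. The log2 fold change of 0.64 (SE 0.39, adjusted p = 0.304) became -0.19 without library 22 and 1.17 without library 24 (adjusted p = 0.00436). Without Nup98 the median of the remaining 31 genes was -0.25.

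Of the 4 soluble factors edgeR called 0. Ran and Xpo1 lay lower in both knockout-labelled libraries, as did 32.7% of all genes tested, while Kpnb1 and Kpna2 had overlapping groups. The difference between these pairs was not tested. Ran (chromosome 5, 129020069 to 129024323, plus strand) measured 360 and 363 CPM against 238 and 299 CPM, with group means of 362 ± 2.39 and 268 ± 43.1 CPM (SD, n = 2 each). Both knockout-labelled libraries were below a tight wild-type pair, and the difference did not pass the threshold (log2 fold change -0.43, SE 0.14, adjusted p = 0.0931). Xpo1, which exports proteins with leucine-rich signals, measured 402 and 397 CPM against 315 and 352 CPM (log2 fold change -0.26, adjusted p = 0.174). Kpnb1, importin beta, had overlapping groups, at 565 and 603 CPM against 598 and 561 CPM. Kpna2, an importin alpha of dividing cells, measured 67.6 and 66.3 CPM against 63.4 and 91.6 CPM, and library 24 alone was high.

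Libraries 22 and 24 were not equally low for the same genes. Of the 32 genes, 12 were lower in 22 and 20 were lower in 24, and all 8 genes of the cytoplasmic face and basket were lower in 24. Transcript length moved with this difference. The log2 difference of 22 minus 24 had a median of -0.14 over 2386 tested genes (5 CPM or more) whose longest coding transcript was under 2 kb, -0.02 over 4092 genes of 2 to 4 kb, 0.10 over 2119 genes of 4 to 6 kb and 0.27 over 1362 longer genes. Among the pore and transport genes the medians in the same 4 classes were -0.09 (6 genes), -0.28 (8), 0.07 (8) and 0.39 (10, of which 8 were higher in 22). Across the 32 genes Spearman's rho between length and this difference was 0.55, and across the 9959 genes of the 4 classes it was 0.38, where all points share the same pair of libraries. The wild-type pair differed with length too: for 13 minus 15, rho was -0.35 over the 32 genes and -0.18 over the 9959. Over the tested genes its medians ran from 0.05 in the shortest class to -0.05 in the longest. The difference between group means had a rho with length of -0.06 over the 32 genes and -0.02 over the 9959. Taken singly against the wild-type pair, the 2 libraries went opposite ways. For library 22 rho was 0.12 over the 32 genes and 0.11 over the 9959, and for library 24 it was -0.43 and -0.18. This look at length was added after the data were seen, and the part that length had in single genes was not tested.

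**Figure D4:**
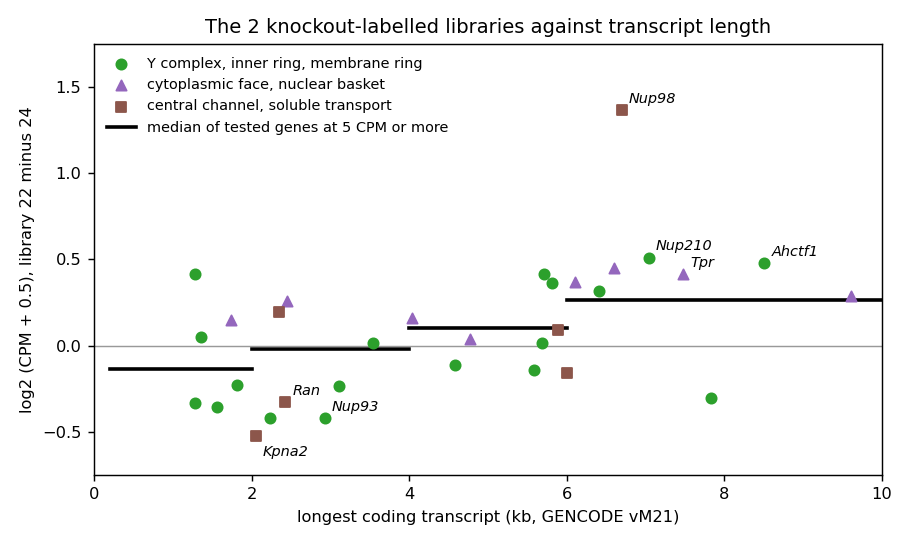
Log2 difference in CPM between knockout-labelled libraries 22 and 24 (y axis, 0.5 added to each) against the longest coding transcript in kilobases (x axis) for the 32 genes, with bars for the median of tested genes in 4 length classes. The median bars climb from -0.14 to 0.27, and Nup98 lies far above the bar of its class.

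Levels can be compared between genes per length of transcript. By the deposited FPKM averaged over 4 libraries, Aaas (124 FPKM), Ran (110 FPKM) and Kpnb1 (83.0 FPKM) were the highest, followed by Nup153 at 45.7 and Xpo1 at 33.9 FPKM. The lowest were Nup35 (4.66 FPKM), Nup43 (5.69 FPKM), Ndc1 (5.84 FPKM) and Ahctf1 (6.25 FPKM). The length implied by count and FPKM exceeded the longest coding transcript of GENCODE vM21 by more than 1.5 times for 17 of the 32 genes, which lowers their FPKM. With CPM per kilobase of that transcript, Ran (130) stood above Aaas (124) and Kpnb1 (98.8), and the lowest was Nup133 (9.76). The same 3 genes therefore led on both scales, while the order at the low end depended on the length used.

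Counts of some genes may include reads of neighbours, since the use of strand is not given in the sources used here. All 11379 bases of Nup43 lie over Pcmt1 on the opposite strand, and Nup35 shares 15126 bases with Dusp19 on the same strand. Nup214 overlaps Fam78a over 3921 bases on the opposite strand. Tpr overlaps the ends of Prg4 and BC003331, and BC003331 was itself high in library 22, with 773 counts against 317 in library 24 and 405 and 372 in wild type.

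A wider list of 58 other genes of the pore and of nuclear transport, taken by function with earlier results of these data known, was then read from the same test. Its counts are a description. Of these, 54 passed the filter on low counts, and 5 of the 54 were called lower (9.26%, against 4.59% of all genes) and 0 higher. At an unadjusted p below 0.05 there were 17 of the 54, of which 1 was higher (Kpna4), where 31.6% of all genes tested reached that level. For higher genes DESeq2 called 1 and limma-voom 0. Both knockout-labelled libraries lay below wild type for 29 genes, above it for 6 and overlapped it for 19. Over all genes tested, 32.7% lay below and 31.1% above. The median log2 fold change of the 54 was -0.18. Fewer were called lower with either wild-type library left out and more with either knockout-labelled one left out, as over all genes tested. The median log2 fold change of the 54 was -0.21 and -0.18 without wild type 13 and 15. It was -0.195 and -0.215 without knockout-labelled 22 and 24.

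Genes that fell were 3 of 17 further import receptors, 1 of 5 genes of the Ran cycle and 1 of 16 genes of mRNA export. Rcc1, the exchange factor that loads Ran with GTP on chromatin, measured 94.3 and 102 CPM in the wild-type pair, against 42.3 and 60.1 CPM. It was 1.92-fold lower (adjusted p = 0.0328, log2 fold change -0.94, SE 0.19), with group means of 98.2 ± 5.50 and 51.2 ± 12.6 CPM (SD, n = 2 each). Among importins, Ranbp6 measured 89.7 and 92.1 against 42.5 and 58.6 CPM (1.80-fold lower, adjusted p = 0.0359). Ipo9, an importin of histones, measured 162 and 148 against 97.7 and 103 CPM (1.55-fold lower, adjusted p = 0.0319). Ipo11 measured 54.1 and 54.5 against 36.6 and 39.0 CPM (1.44-fold lower, adjusted p = 0.0472). Alyref, an adaptor that loads mRNA onto the export receptor, measured 86.8 and 101 against 52.1 and 65.2 CPM (1.603-fold lower, adjusted p = 0.0495). In all 5 genes both knockout-labelled libraries were below both wild-type libraries, and each call was lost when either wild-type library was left out. Against a minimum fold of 1.2 none of the 5 passed (adjusted p from 0.0586 for Rcc1 to 0.121 for Ipo11). Alyref, just inside the threshold like Nup155, also lost its call without knockout-labelled 22 (adjusted p = 0.0575), with a filter at 5 CPM (0.0520), with DESeq2 size factors (0.0505), with upper quartile scaling (0.0535) and in limma on log2(FPKM + 0.1) and log2(FPKM + 1) (0.0597 and 0.0626). Ipo11 did not pass in limma-voom (0.0505) or in limma on log2 FPKM (0.0866 and 0.0873 with 0.1 and 1 added), Ranbp6 did not pass on log2 FPKM (0.0504 and 0.0526), and Rcc1 did not pass on log2(FPKM + 1) (0.0502).

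Importins did not move as a block. Kpna4, an importin alpha, measured 278 and 257 CPM in the wild-type pair, against 469 and 342 CPM (log2 fold change 0.60, adjusted p = 0.0663), and Kpna3 and Kpna6 also lay higher in both without passing the threshold. Summed over the 17 import receptors the level was 1900 and 2078 CPM in the wild-type pair, against 2169 and 1811 CPM. Tnpo1, the receptor of RNA-binding cargo, was at 105 CPM in wild type 13 and at 277, 301 and 252 CPM in libraries 15, 22 and 24, so that 1 wild-type library stood apart. In the Ran cycle, Ranbp1 (65.5 and 82.8 against 39.6 and 56.9 CPM) and Rangap1 (420 and 436 against 330 and 386 CPM) lay lower with adjusted p-values of 0.101 and 0.206. No gene passed among 6 other pore proteins (2 at an unadjusted p below 0.05; DESeq2 and limma-voom 0), 6 other export receptors (2 at that level; DESeq2 1, limma-voom 0) or 4 genes of the SUMO cycle at the pore (0 at that level and 0 by both).

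**Figure D5:**
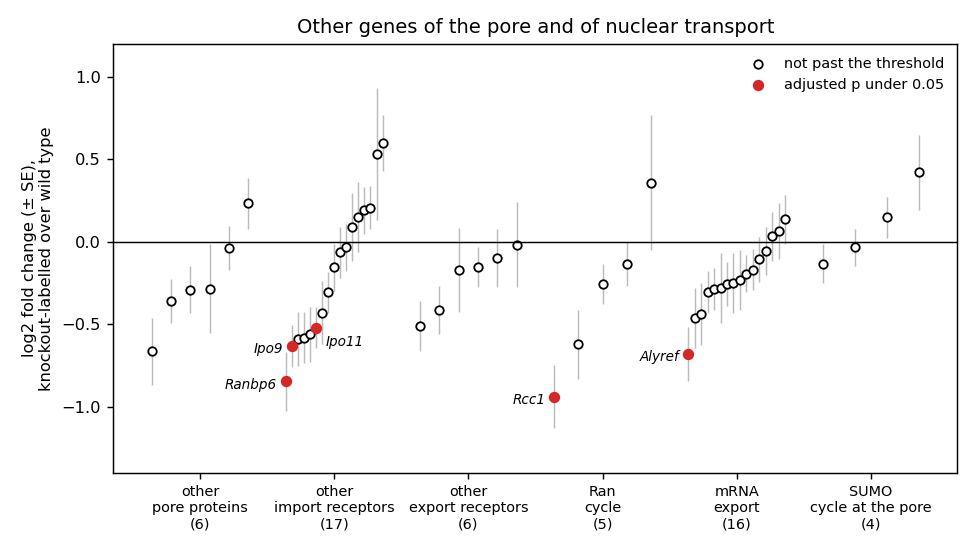
Log2 fold change of knockout-labelled over wild-type libraries with its standard error (y axis) for 54 other pore and transport genes, sorted within 6 roles, with filled points for an adjusted p under 0.05. The 5 filled points, Rcc1, Ranbp6, Alyref, Ipo9 and Ipo11, all lie below 0.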

How the data were processed

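RNA-seq counts of 4 libraries were used, grouped by the genotype in the labels. The labels' protocols name TRIzol extraction and the Illumina HiSeq platform, and the submitters' processing notes list Bowtie2, RSEM and GRCm38.p6 (mm10). Their versions, the annotation and the strand setting were not stated there. The deposited table held whole-number counts per gene and the authors' FPKM. The length implied by both was fixed per gene (10430 genes checked, largest difference between libraries 0.00158%).

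Counts as deposited were tested with edgeR 4.0.16 in R 4.3.3: filterByExpr (minimum count 10, minimum total 15), trimmed mean of M values (factors 1.02, 1.02, 0.959 and 1), and glmQLFit with glmQLFTest (two-sided, no covariate), at a common biological coefficient of variation of 0.157. P-values were adjusted by Benjamini-Hochberg over 13279 genes with a threshold of 0.05, and single-gene adjusted p-values are from this test. An exact test of 2 against 2 libraries cannot give a p below 0.333. Standard errors are approximate, taken from the fold change and its F statistic. CPM used scaled library sizes. The code was tested on simulated data. Replicates differed by more than sampling noise, and each library counted once. Alternatives were other scalings and filters, DESeq2 1.42.0, limma 3.58.1 (voom, and log2 FPKM with 1 or 0.1 added), a minimum fold of 1.2, and leaving out each library.

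The genes and lists, their roles included, were chosen with earlier results of these data known. Named genes were all listed pore genes, Setd2, every further pore or transport gene past the threshold and up to 3 by adjusted p of lists on the nuclear envelope, replication, mitosis, and Myc and the nucleolus. Other names were picked after values were seen. Figures used matplotlib 3.10.9.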

Additional observations from a re-analysis of the deposited data

How the results depend on the processing

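Against the 2 pore and transport genes called lower, a filter at 5 CPM or DESeq2 size factors gave 1, library totals 4, DESeq2 and no filter 5 each, and a minimum fold of 1.2 or limma on log2 FPKM with 0.1 or 1 added 0. The lower calls over all genes were 566 with a filter at 5 CPM, 598 with DESeq2 size factors, 771 with library totals and 912 with DESeq2. Library totals moved the median log2 fold change of all genes to -0.06, and 0.1 and 1 added to FPKM moved it to -0.06 and -0.04. In the 32 pore and transport genes the median was -0.28 with library totals and -0.29 and -0.28 with 0.1 and 1 added to FPKM. Leaving out 1 library gave 0 to 12 lower, 0 to 2 higher and medians of -0.23 to -0.18. Of the other transport genes, DESeq2 and no filter gave 1 higher each, and a minimum fold of 1.2, log2(FPKM + 0.1), log2(FPKM + 1) and no filter gave 0, 2, 1 and 9 lower. Leaving out 1 library gave 0 to 15 lower and 0 to 3 higher. Over all genes, 734 higher and 610 lower became 372 and 248 against a minimum fold of 1.2 and 1261 and 1088 with no filter, higher genes were 457 and 445 with 0.1 and 1 added to FPKM, and leaving out 1 library gave 120 to 2122 higher and 70 to 2002 lower. Of the 32 pore genes, 22 kept the sign of their fold change under all 14 alternatives, 19 of them lower. The fit against a minimum fold of 1.2 has the fold changes of the main fit, so no sign could change there. The causes of these shifts were not tested. No paired analysis was possible because the groups share no replicate number. The lowest count of any of these 32 genes was 235 (Nup35, library 22). A gene that did not pass is not shown to be equal.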

Other observations

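Lists from other nuclear programmes were read from the same edgeR test, with the same libraries and the same limits. Over all genes tested, 4.59% were called lower and 5.53% higher, and 31.6% had an unadjusted p below 0.05. Of the same 13279 genes DESeq2 called 912 lower and 1098 higher, and limma-voom 618 lower and 699 higher. Of 24 DNA replication genes, 12 fell and 0 rose, with a median log2 fold change of -0.80. At an unadjusted p below 0.05 there were 19 lower and 0 higher, DESeq2 called 16 lower and 0 higher, and limma-voom 13 and 0. Pole, the leading-strand polymerase, measured 236 and 281 CPM in the wild-type pair, against 96.4 and 102 CPM (log2 fold change -1.38, adjusted p = 0.0103). Pold1 and Pola1, of the other replicative polymerases, stood at -0.83 and -1.22 on the log2 scale (adjusted p = 0.0199 and 0.0204). Fewer replication genes passed with either wild-type library left out and more with either knockout-labelled one left out, as over all genes tested. Their median was -0.84 and -0.69 without wild type 13 and 15, and -0.52 and -0.93 without knockout-labelled 22 and 24. Of 12 genes of Myc and the nucleolus, 7 fell and 0 rose, with a median of -0.68. At an unadjusted p below 0.05 there were 9 lower and 0 higher, DESeq2 called 8 lower and 0 higher, and limma-voom 6 and 0. Those that fell included Fbl, Nolc1 and Nop58, factors of ribosomal RNA processing, at -0.90, -0.75 and -0.66 on the log2 scale (adjusted p = 0.0216, 0.0308 and 0.0323). Fewer of the 12 genes passed without wild type 13 or 15, with medians of -0.78 and -0.57.

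Mitotic genes were split. Of 16, Mki67 fell (log2 fold change -0.51, adjusted p = 0.0408) and Cdc20, the activator of the anaphase-promoting complex, rose (0.60, adjusted p = 0.0325). Both calls were lost against a minimum fold of 1.2 and in limma on log2(FPKM + 0.1) and log2(FPKM + 1). Both were also lost without wild type 13 or 15, and that of Mki67 without knockout-labelled 22. The median of the 16 was 0.05. Of 14 genes of the lamina and inner nuclear membrane, 0 were called (5 at an unadjusted p below 0.05; DESeq2 1 higher, limma-voom 0), with a median of -0.0038. Syne1, a linker to the cytoskeleton, lay closest to the threshold at 40.3 and 40.7 CPM in the wild-type pair, against 65.9 and 54.6 CPM (log2 fold change 0.57, adjusted p = 0.0520).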
